A study of Homo sapiens with 10 samples.

Results

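The caveolins CAV1, CAV2 and CAV3 and the cavins CAVIN1, CAVIN2 and CAVIN3 were compared across 5 human prostate cancer cell lines. The genes were chosen by name, and all 6 were found among the 60642 gene symbols of the expression table. CAV1 was at 215.85 to 405.35 TPM in every sample of DU145 and PC3 and reached 0.78 TPM at most in the samples of LNCaP, DUCAP and VCAP. CAVIN1 was at 203.58 and 399.94 TPM in DU145, whereas in PC3 it was listed at 0.02 and 0 TPM. PC3 was thus the line in which caveolin transcripts were high while cavin transcripts were at or near 0.

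Bulk RNA-seq was performed on untreated cells, with 2 biological repeats of each line and 10 samples in all. The study sets LNCaP, DUCAP and VCAP as one group of lines against DU145 and PC3 as the other. All lines were grown in phenol-red-free RPMI with fetal bovine serum and harvested while growing exponentially, LNCaP was of clone FGC, and the serum share is a range in the labels and a single value within it in the study's methods. The libraries were polyA-selected and strand-specific, and abundances were given as TPM, a length-scaled share of each sample's transcripts. DUCAP and VCAP are known to derive from the same donor. Each line is a single established culture, so that a p-value from these samples measures the spread between repeats of these lines and not between tumors.

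The epithelial markers EPCAM, KRT8 and KRT18 were each above 1 TPM in all 10 samples, while 5 prostate luminal markers summed to 2981 TPM or more in LNCaP, DUCAP and VCAP and to 64.9 TPM or less in DU145 and PC3. The repeats of DU145 stood farther apart than those of the other lines. Of the 17520 tested genes, 9.48% were at least 2-fold apart in TPM + 1, against 0.902 to 2.12% elsewhere. Adding 1 TPM shrinks gaps between values near 0. The mitochondrial share of the TPM was 22.5 and 15.3% in the DU145 repeats, 12.7 and 15.0% in PC3 and 18.9 to 36.0% in the other lines. Depth cannot be read from TPM, so no counting interval was computed, and a value of 0 is given as listed at 0. None of 14 housekeeping genes was listed at 0 in any sample.

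Caveolae are small flask-shaped pits of the plasma membrane that buffer membrane tension, take up cargo and gather signaling proteins. Caveolins are hairpin-shaped membrane proteins that oligomerize in the inner leaflet, and cavins are soluble proteins that bind them from the cytosol and form an outer coat. CAV1 and CAVIN1 are both needed for caveolae in non-muscle cells, CAV2 binds CAV1, CAV3 is the muscle caveolin, and CAVIN2 and CAVIN3 modify the shape and dynamics of the coat. Caveolin-1 has long been studied in advanced prostate cancer, and PC3 has served as a model of a cell that makes caveolin-1 without cavin-1.

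CAV1 and CAV2 lie in the same direction on chromosome 7. In the RefSeq annotation of GRCh38.p14, CAV2 spans 116499738 to 116508541 and CAV1 spans 116525009 to 116561185, both on the plus strand, with 16468 bases between them. The 250 bases before each start are shown because both genes were high in the same lines and near 0 in the same lines. Capitals mark the GC box GGGCGG, a binding sequence of SP family factors, on either strand.

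CAV1 (chr7:116524759-116525008, plus strand): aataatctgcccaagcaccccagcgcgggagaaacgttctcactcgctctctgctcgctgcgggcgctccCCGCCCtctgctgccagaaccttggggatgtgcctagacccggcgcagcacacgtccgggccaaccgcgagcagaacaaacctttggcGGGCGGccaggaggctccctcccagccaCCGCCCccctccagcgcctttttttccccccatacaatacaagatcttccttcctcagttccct
CAV2 (chr7:116499488-116499737, plus strand): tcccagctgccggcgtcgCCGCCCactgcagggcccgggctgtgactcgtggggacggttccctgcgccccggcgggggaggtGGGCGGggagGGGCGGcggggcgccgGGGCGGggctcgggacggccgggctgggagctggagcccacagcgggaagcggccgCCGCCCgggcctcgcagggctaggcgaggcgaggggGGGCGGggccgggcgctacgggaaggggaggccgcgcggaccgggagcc

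The CAV1 window held 18 CpG dinucleotides and 3 GC boxes, and the CAV2 window held 35 CpG dinucleotides and 6 GC boxes. Across 35116 RefSeq promoter windows of this length the median was 11 CpG, 63.2% had fewer than CAV1 and 94.2% had fewer than CAV2, and 42.6% held at least 1 GC box. Searched on both strands, the letters TATAAA of a TATA box (in 10.7% of windows), TGANTCA of an AP-1 site (6.57%) and GGAATG of a TEAD site (11.9%) were not in either window. These are matches of letters and not measured binding sites.

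CAV1, the gene of the main structural protein of caveolae outside muscle, was at 215.85 and 405.35 TPM in the DU145 repeats and at 270.2 and 236.05 TPM in the PC3 repeats. It was at 0.11 and 0 TPM in LNCaP, at 0 in both DUCAP repeats and at 0.17 and 0.78 TPM in VCAP. The samples of DU145 and PC3 thus did not overlap with the other 6, and the PC3 values lay within the range of the DU145 pair. The mean was 311 ± 134 TPM in DU145 and 253 ± 24.1 TPM in PC3 (SD, n = 2). Among the 17520 tested genes, CAV1 stood above 96.7 to 98.3% in the 4 samples of these lines. In bulk RNA, fewer cells that carry a transcript and less of it per cell cannot be told apart.

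CAV2, which forms hetero-oligomers with CAV1, was at 99.5 and 172.55 TPM in DU145 and at 45.19 and 38.89 TPM in PC3. It was at 0.07 TPM in both LNCaP repeats, at 0 in both DUCAP repeats and at 0.12 and 0.27 TPM in VCAP. Both genes were thus high in the same 4 samples, but unlike CAV1, CAV2 was lower in both PC3 samples than in either DU145 sample. The mean level was 136 ± 51.7 TPM in DU145 and 42.0 ± 4.45 TPM in PC3 (SD, n = 2). CAV3, the caveolin of heart and skeletal muscle, was listed at 0 in all 10 samples and did not pass the filter, which asked for 1 TPM or more in 2 or more samples. It spans 8733802 to 8746758 on chromosome 3.

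CAVIN1, the cavin on which the coat depends, spans 42402449 to 42423256 on chromosome 17. Its level was 203.58 and 399.94 TPM in DU145, 1.94 and 3.29 TPM in LNCaP, 0.27 and 0.25 TPM in DUCAP, and 0.28 and 0.48 TPM in VCAP. In PC3 it was listed at 0.02 and 0 TPM, below every sample of the other 4 lines. DU145, at a mean of 302 ± 139 TPM (SD, n = 2), was the line with the highest level, and LNCaP came next at 2.62 ± 0.955 TPM.

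CAVIN2, also called SDPR and known to promote membrane curvature, was at 22.2 and 30.24 TPM in DU145 and at 0.29 and 0.09 TPM in PC3. Its highest value in the other 6 samples was 0.03 TPM. CAVIN3, also called PRKCDBP and known to bind protein kinase C delta, was at 20.29 and 42.79 TPM in DU145 and listed at 0 in all 8 other samples. Both passed the filter through DU145 alone, so that they had to differ between lines, and their calls are not evidence beyond their values. CAVIN2 spans 191834310 to 191847088 on the minus strand of chromosome 2, and CAVIN3 spans 6318946 to 6320501 on chromosome 11. The window before CAVIN2 is shown beside those of the caveolins, with the letters GGAATG of the TEAD site in capitals.

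CAVIN2 (chr2:191847089-191847338, minus strand): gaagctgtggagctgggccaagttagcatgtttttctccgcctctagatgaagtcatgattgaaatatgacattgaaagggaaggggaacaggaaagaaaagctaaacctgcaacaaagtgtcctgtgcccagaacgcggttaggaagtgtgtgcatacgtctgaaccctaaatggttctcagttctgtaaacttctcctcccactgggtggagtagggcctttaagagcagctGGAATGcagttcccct

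This window held 4 CpG dinucleotides, and 29.3% of all windows held fewer. It had 1 match to the TEAD letters and none to the GC box, the TATA box or the AP-1 letters.

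**Figure D1:**
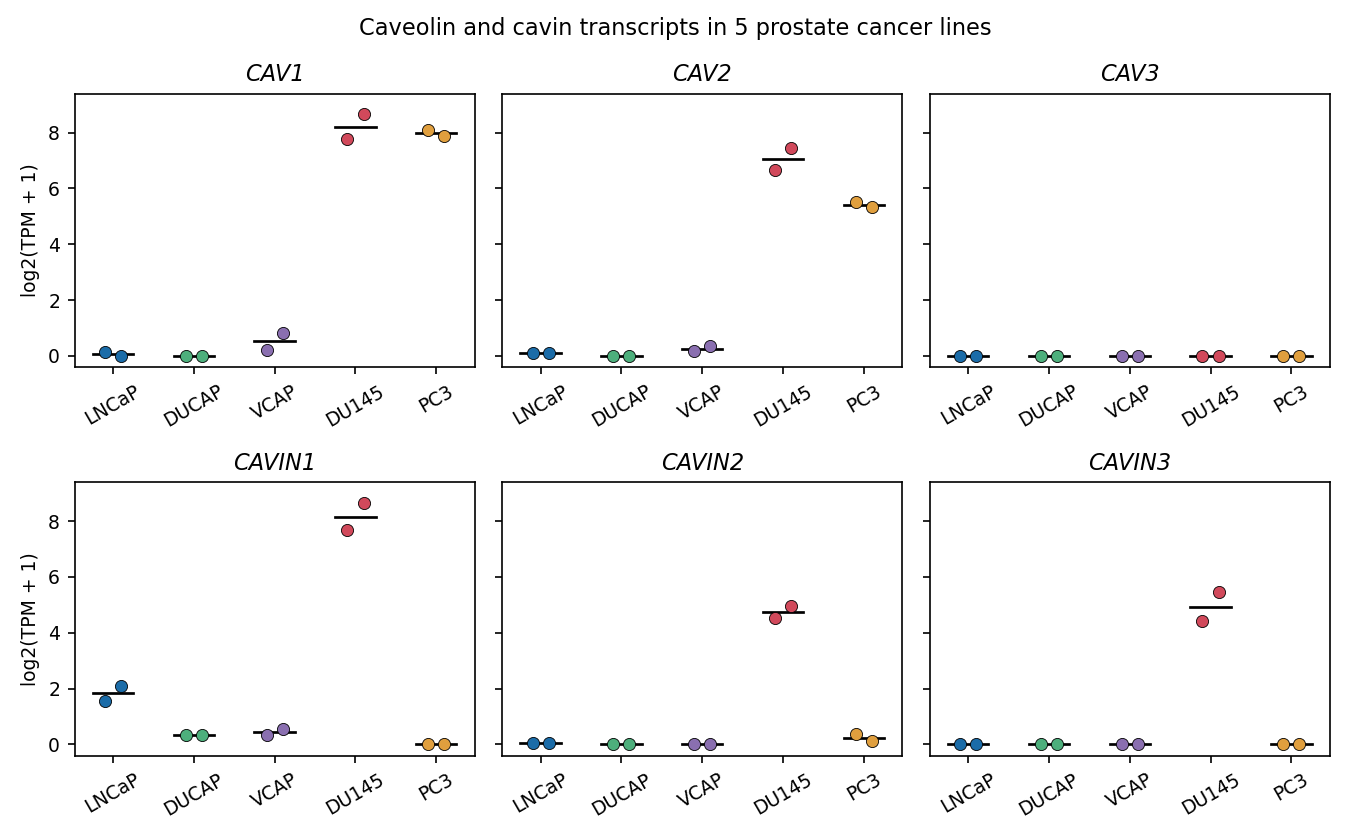
Level of each of the 6 genes on the log2(TPM + 1) scale (vertical axis) in the 5 lines (horizontal axis), with 1 point per repeat and a bar at the mean of both. CAV1 and CAV2 are high in DU145 and PC3, the cavins are high in DU145 and not in PC3, and CAV3 is listed at 0 in all 10 samples.

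TPM are scaled for length, so the levels of different genes can be set side by side within a sample. Caveolin and cavin transcripts were of similar abundance in DU145. The summed level of the 3 caveolins was 315.35 and 577.9 TPM in the DU145 repeats, and that of the 3 cavins was 246.07 and 472.97 TPM. In PC3 the caveolin sum was 315.39 and 274.94 TPM, whereas the cavin sum was 0.31 and 0.09 TPM. PC3 repeat 1 therefore had a caveolin sum within 1 TPM of that of DU145 repeat 1.

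The ratio of CAVIN1 to CAV1 TPM was 0.943 and 0.987 in the DU145 repeats. It was 7.4e-05 in PC3 repeat 1 and 0 in PC3 repeat 2, where CAVIN1 was listed at 0. As a difference on the log2(TPM + 1) scale, CAV1 exceeded CAVIN1 by 0.08 and 0.02 in DU145 and by 8.05 and 7.89 in PC3. The size of the PC3 difference follows the pseudocount of 1, since CAVIN1 was at or near 0 there, and it was 11.2 with a pseudocount of 0.1. In LNCaP the order was the opposite, with CAV1 minus CAVIN1 at −1.41 and −2.10. In DUCAP and VCAP both genes were below 1 TPM.

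Among the other pairs, the ratio of CAV2 to CAV1 was 0.461 and 0.426 in the DU145 repeats, against 0.167 and 0.165 in those of PC3. The repeats of a line were thus closer to each other in this ratio than the lines were. In the DU145 repeats CAVIN2 stood at 0.103 and 0.0746 of the CAV1 level, and the ratio of CAVIN3 to CAV1 was 0.0940 and 0.106, so that both minor cavins stood well below CAV1 and CAVIN1. In PC3 the ratio of CAVIN2 to CAV1 was 0.00107 and 0.000381. The levels of all 5 detected genes were higher in DU145 repeat 2 than in repeat 1, by 1.88 times for CAV1, 1.73 for CAV2, 1.96 for CAVIN1, 1.36 for CAVIN2 and 2.11 for CAVIN3.

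**Figure D2:**
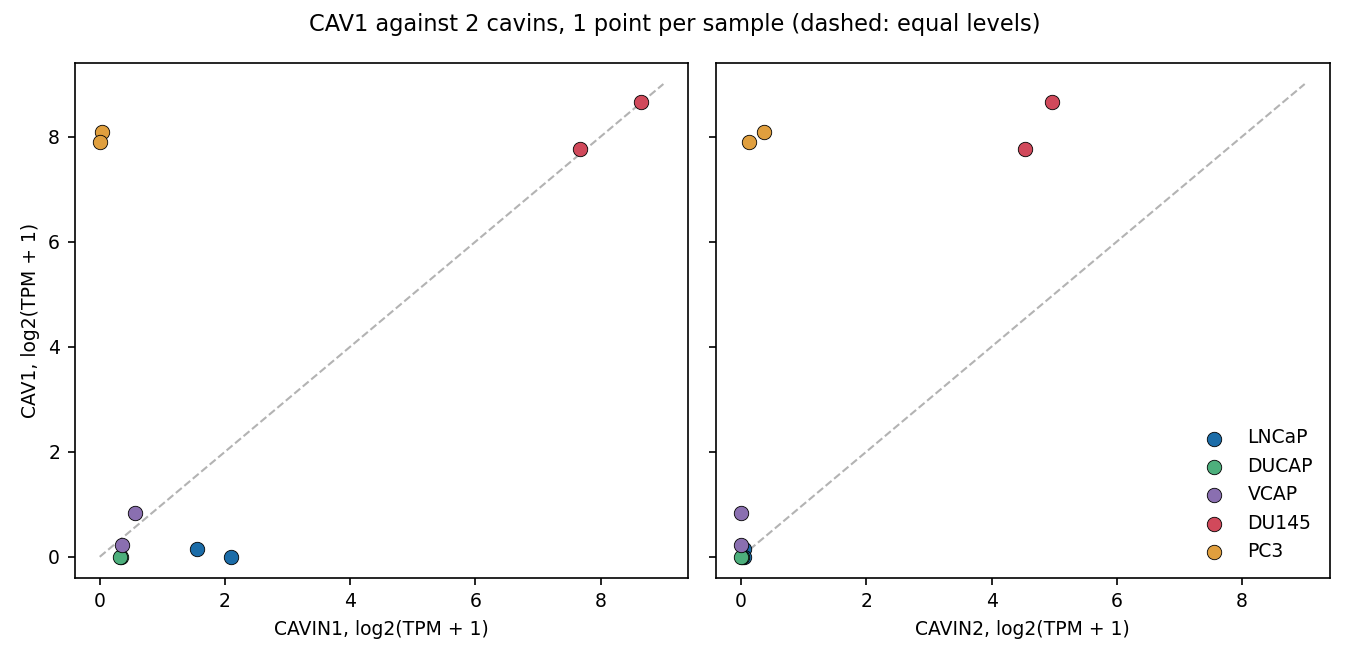
CAV1 (vertical axis) against CAVIN1 (left) and CAVIN2 (right), both on the log2(TPM + 1) scale, with 1 point per sample colored by line and a dashed line of equal levels. The DU145 samples lie on the dashed line for CAVIN1, the PC3 samples lie at 8.08 and 7.89 for CAV1 with CAVIN1 at 0.03 and 0, and the other lines lie near the origin.

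The comparison of PC3 with DU145 was tested with limma on log2(TPM + 1), with Benjamini-Hochberg adjustment over the 17520 tested genes and calls at an adjusted p under 0.05. Under this test 49.3% of all tested genes were called between PC3 and DU145, 25.5% higher and 23.8% lower in PC3, so a call by itself was common. CAV1 was not called, with a difference of −0.23 (standard error 0.30, 95% confidence interval −0.93 to 0.47, adjusted p = 0.58 from limma). Without DU145 repeat 2 the sign of this difference turned to 0.23. CAV2 was lower in PC3 by a difference of −1.62 (standard error 0.25, adjusted p = 0.00087), and both PC3 samples lay below both DU145 samples.

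CAVIN1 was lower in PC3 than in DU145 by a difference of −8.15 on the same scale (standard error 0.31, 95% confidence interval −8.86 to −7.43, adjusted p = 4.6e-07 from limma). The corresponding differences were −4.50 for CAVIN2 (adjusted p = 3.7e-07) and −4.93 for CAVIN3 (adjusted p = 3.4e-06), with the limit that both genes entered the test through DU145. Because the PC3 values of the cavins were at or near 0, these are differences on a scale with a pseudocount and not fold changes. The interval for CAV1 leaves room for a lower or a higher level in PC3. It does not reach the interval of CAV2 or CAVIN1. Nor does it reach that of CAVIN2 or CAVIN3, for which the limit from the filter holds here too.

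**Figure D3:**
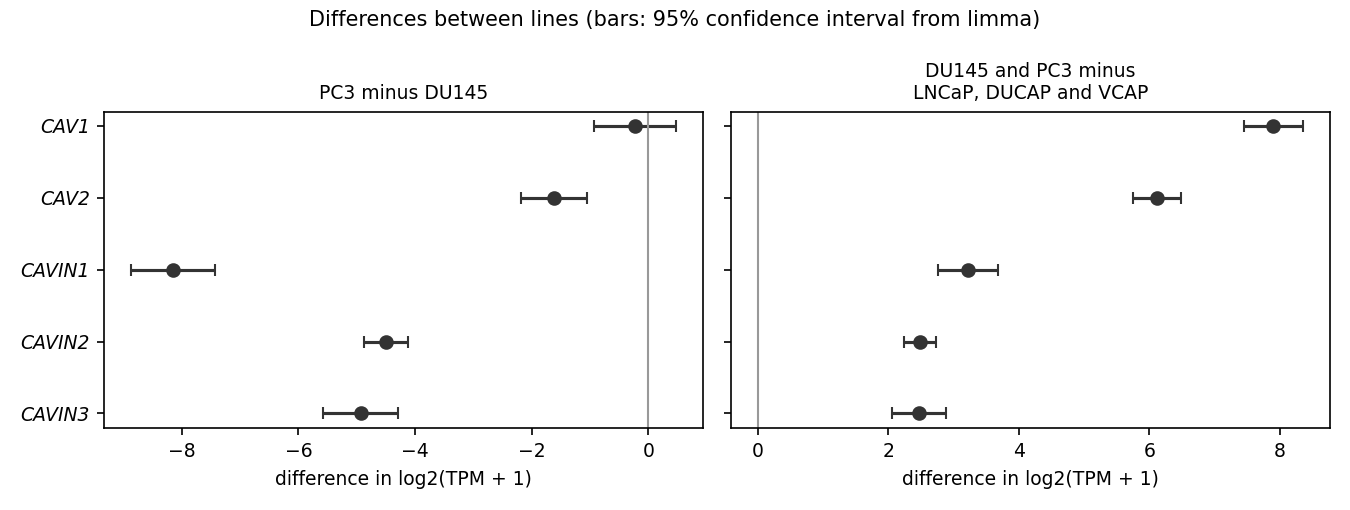
Differences in log2(TPM + 1) between lines (horizontal axis) for the 5 tested genes, with points at the limma estimate and bars for the 95% confidence interval, for PC3 minus DU145 (left) and for the mean of DU145 and PC3 minus the mean of LNCaP, DUCAP and VCAP (right). On the left the CAV1 interval spans 0 and the cavins lie between −8.15 and −4.50; on the right CAV1 and CAV2 lie at 7.90 and 6.12.

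DU145 and PC3 were then compared with the other 3 lines, as the mean of DU145 and PC3 minus the mean of LNCaP, DUCAP and VCAP. In this contrast 74.4% of all tested genes were called, 51.9% higher and 22.5% lower in DU145 and PC3, and the median difference of all genes was 0.40. CAV1 was higher by 7.90 (standard error 0.20, adjusted p = 1.7e-08 from limma) and CAV2 by 6.12 (standard error 0.16, adjusted p = 1.9e-08). Both genes stayed below 1 TPM in LNCaP, DUCAP and VCAP and entered the test through DU145 and PC3 alone, so that they had to differ here, and these calls are not evidence beyond the values. For both genes all 4 samples of DU145 and PC3 lay above all 6 samples of the other lines. The values of CAVIN1 (3.21), CAVIN2 (2.48) and CAVIN3 (2.47) were also positive and called, but they are averages of a high level in DU145 and a level at or near 0 in PC3, and the groups overlapped for CAVIN1 and CAVIN3. The median of all genes moved to −0.08 after quantile normalization, to 0.02 after median-ratio scaling and to 0.22 after rescaling without mitochondrial genes. The share of the called genes that were higher moved from 69.8% to 46.2% and 52.1% under quantile normalization and median-ratio scaling. The CAV1 and CAV2 differences stayed at or above 7.57 and 5.78 under the alternatives run.

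Pairs of lines gave the order of the levels. For CAV1 the order of the means was DU145, PC3, VCAP, LNCaP and DUCAP, and for CAV2 it was the same. DU145 and PC3 were each called above LNCaP, DUCAP and VCAP for both genes, with differences of 5.17 to 8.21 (adjusted p at most 6.5e-07 from limma), with the same limit from the filter. As background, 55.9% of tested genes were called between DU145 and LNCaP, 66.6% between DU145 and DUCAP, 65.4% between DU145 and VCAP, 57.7% between PC3 and LNCaP, 67.8% between PC3 and DUCAP, and 67.6% between PC3 and VCAP. Among LNCaP, DUCAP and VCAP no difference in either gene passed the threshold. The largest of these differences was 0.53 for CAV1 between VCAP and DUCAP (95% confidence interval −0.17 to 1.23, adjusted p = 0.28 from limma). With a pseudocount of 0.1, which spreads values near 0, this difference passed the threshold at 2.29, as did CAV1 between VCAP and LNCaP (1.75) and CAV2 between VCAP and DUCAP (1.51).

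For CAVIN1 the order was DU145, LNCaP, VCAP, DUCAP and PC3. DU145 was called above each of the other lines. LNCaP was called above DUCAP (difference of DUCAP minus LNCaP −1.50, adjusted p = 0.0032 from limma; 60.7% of tested genes called), above VCAP (−1.37, adjusted p = 0.0052; 60.1% called) and above PC3 (−1.81, adjusted p = 0.0012). The call against VCAP was lost without LNCaP repeat 2, at −1.09 (adjusted p = 0.051). The difference of VCAP minus DUCAP did not pass (0.13, adjusted p = 0.87; 18.3% of tested genes called). PC3 was below DUCAP by a difference of −0.32 (adjusted p = 0.39) and below VCAP by −0.45 (adjusted p = 0.23), and neither passed the threshold. For CAVIN2 and CAVIN3, which entered the test through DU145, only DU145 was called apart from the other lines. These calls are not evidence beyond the values. The difference of PC3 minus VCAP in CAVIN2 was 0.25 (adjusted p = 0.22 from limma). With a pseudocount of 0.1, 36 differences of members between pairs of lines were called in place of 28. No share of all tested genes at this pseudocount stands beside these counts. Of the members' calls, 8 were gained and 0 lost. Besides the 3 in CAV1 and CAV2, PC3 was then called below DUCAP (−1.72) and VCAP (−2.10) in CAVIN1 and above LNCaP (1.07), DUCAP (1.38) and VCAP (1.44) in CAVIN2 (adjusted p at most 0.033 from limma), all between lines below 1 TPM in these genes. Across all 5 lines, 90.8% of tested genes were called by the F-test of limma, with adjusted p = 3.9e-07 for CAVIN1.

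The genes next to the caveolins on chromosome 7 were examined, with the 3 nearest protein-coding genes on each side. MET, the receptor of hepatocyte growth factor, starts 111011 bases after CAV1. It was at 0.45 to 1.69 TPM in LNCaP, DUCAP and VCAP, at 40.75 and 70.6 TPM in DU145 and at 130.07 and 106.03 TPM in PC3. MDFIC, a regulator of transcription factors, reached 0.02 TPM at most in LNCaP, DUCAP and VCAP and was at 25.17 and 21.43 TPM in DU145 and at 13.07 and 12.81 TPM in PC3. TES, a focal adhesion protein gene, was at 9.23 to 31.69 TPM in LNCaP, DUCAP and VCAP, at 50.61 and 68.74 TPM in DU145 and at 115.44 and 107.97 TPM in PC3. For these 3 genes, as for CAV1 and CAV2, the samples of DU145 and PC3 did not overlap those of the other lines. The share of all tested genes without such overlap was not computed. In the contrast of these groups 51.9% of all tested genes were called higher. It gave 5.37 for MET, 4.20 for MDFIC and 2.25 for TES (adjusted p at most 4.5e-07 from limma). MDFIC entered this test through DU145 and PC3 alone, so its call is not evidence beyond its values.

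TFEC, between MDFIC and TES, was below the filter. It was listed at 0 in all 6 samples of LNCaP, DUCAP and VCAP, was at 0.02 and 0.01 TPM in DU145 and at 0.82 and 0.74 TPM in PC3, and so did not overlap either, at levels below 1 TPM. CAPZA2, a subunit of actin capping protein, was at 38.84 to 97.87 TPM in all samples with overlapping groups (0.28, adjusted p = 0.044 from limma). The contrast was negative for ST7 (−1.21, adjusted p = 5.0e-05 from limma), but its groups overlapped as well. ST7 was at 21.07 to 24.83 TPM in DU145 and PC3 and at 79.78 to 120.23 TPM in LNCaP and VCAP. In DUCAP it was at 14.51 and 15.77 TPM, below DU145 and PC3. MET and TES were higher in PC3 than in DU145 (1.12 and 0.91), whereas MDFIC and CAV2 were lower in PC3 (−0.80 and −1.62).

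Around CAVIN1 on chromosome 17, PC3 stood apart from the other 4 lines in a whole stretch of genes. STAT3, a transcription factor activated by cytokines, ends 14007 bases before CAVIN1. It was listed at 0 in both PC3 samples and at 11.6 to 137.07 TPM in the 8 samples of the other lines. STAT5B was at 0.01 and 0 TPM in PC3 and at 8.28 to 29.04 TPM elsewhere, and STAT5A was listed at 0 in PC3 and at 0.54 to 7.72 TPM elsewhere. STAT5A and STAT5B are close paralogs, so their division of reads is uncertain. On the other side, ATP6V0A1, a subunit of the vacuolar proton pump, was at 0.06 and 0 TPM in PC3 and at 26.92 to 66.88 TPM elsewhere. NAGLU, the next gene, was at 6.49 and 6.78 TPM in PC3, within the range of 2.37 to 28.66 TPM of the other lines but lower than in DU145 (−1.64, adjusted p = 0.00016 from limma), and HSD17B1 was at 0.48 and 0.60 TPM, within the range of the other lines.

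This stretch was followed further after its values had been seen. Genes that reached 1 TPM in 4 or more of the 8 samples of the other lines were taken in genome order, and those at or below 0.1 TPM in both PC3 samples were called low. CAVIN1 lay in a run of 9 such genes in a row, namely DHX58, KAT2A, RAB5C, GHDC, STAT5B, STAT5A, STAT3, CAVIN1 and ATP6V0A1. KAT2A, a histone acetyltransferase gene, was at 0.03 and 0 TPM in PC3 and at 22.72 to 58.5 TPM elsewhere. RAB5C, an early endosome GTPase gene, was at 0.08 and 0.06 TPM in PC3 and at 67.93 to 200.15 TPM elsewhere. Of the genes taken, the nearest on each side of the run were C17orf113, at 0.63 and 0.93 TPM in PC3 and 0.16 to 2.74 TPM elsewhere, and NAGLU, whose PC3 level was below that of DU145. The next genes outward, NKIRAS2 and COASY, were at 32.85 and 34.81 TPM and at 58.63 and 58.16 TPM in PC3, within the ranges of 19.18 to 63.41 and 20.19 to 73.58 TPM of the other lines.

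The run spans 42101411 to 42522579 on chromosome 17, a length of 421169 bases. All 12 protein-coding genes of the table in this interval were at or below 0.08 TPM in both PC3 samples, among them genes that were near 0 in the other lines as well. Across the genome, 2.94% of the 11487 genes examined for PC3 were low by this rule. The longest run in each of the other 4 lines was 5 genes. PC3 and DU145 each held 2 runs of 5 or more genes, and LNCaP, DUCAP and VCAP each held 1. The low level of CAVIN1 in PC3 was thus shared by its neighbours, and the cause was not tested. CAVIN2 and CAVIN3, which were also at or near 0 in PC3, are on chromosomes 2 and 11.

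**Figure D4:**
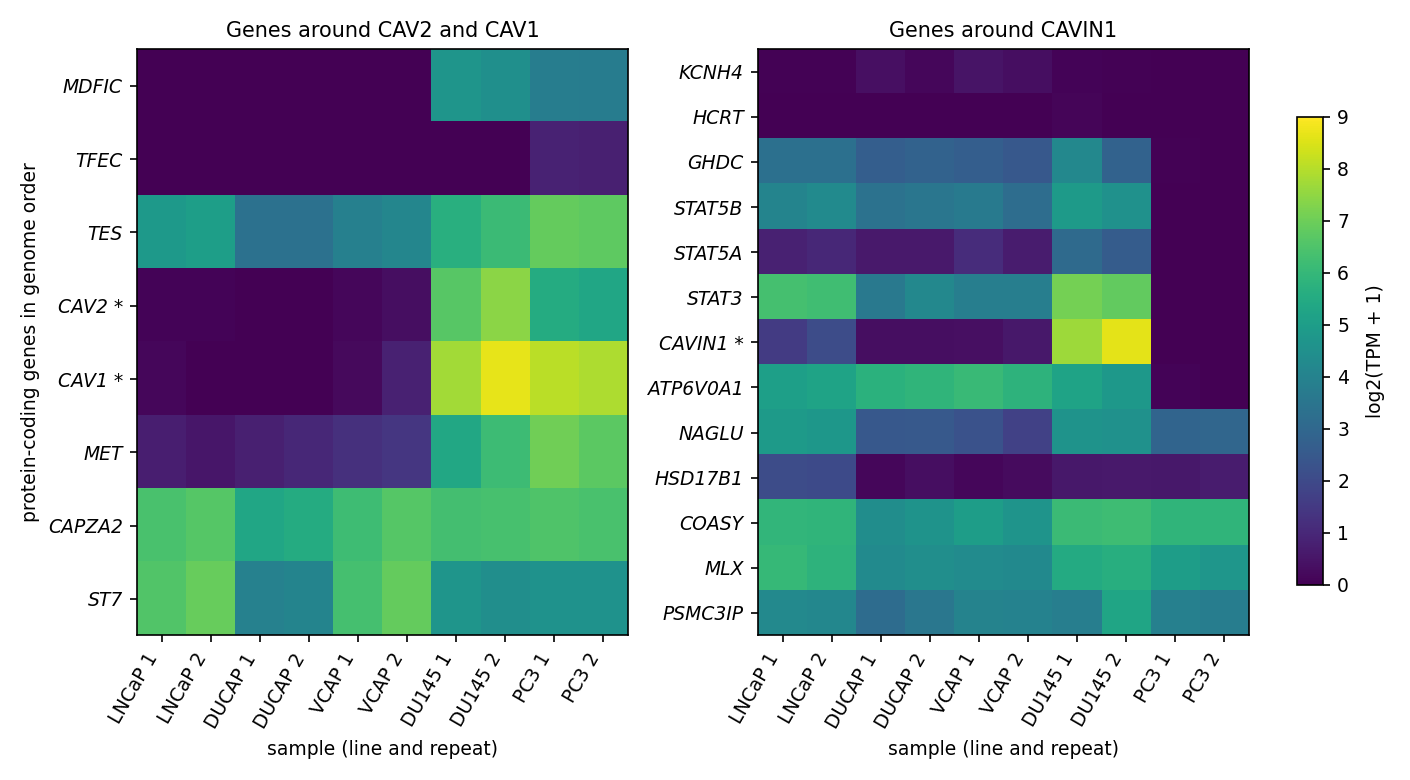
Heatmaps of log2(TPM + 1) in the 10 samples (columns, by line and repeat) for protein-coding genes in genome order (rows), with 3 genes on each side of CAV2 and CAV1 (left) and 6 on each side of CAVIN1 (right); asterisks mark the caveolins and CAVIN1. MET, TES and MDFIC are brighter in DU145 and PC3 on the left, and on the right the rows from GHDC to ATP6V0A1 are dark in both PC3 columns, with PC3 values of 0 to 0.06 TPM.

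Genes that act with caveolins and cavins were described from fixed lists. Of 13 caveola accessory genes, 12 were tested. In PC3 against DU145, 2 were higher and 2 lower, a smaller share than the 25.5 and 23.8% of all tested genes, with a median difference of 0.21 against 0 for all tested genes. EHD2, an ATPase at the neck of caveolae, was at 83.83 and 55.53 TPM in DU145, at 3.28 and 4.08 TPM in PC3 and at no more than 0.03 TPM elsewhere. It was lower in PC3 by a difference of −3.89 (standard error 0.20, adjusted p = 2.1e-06 from limma), a direction it shared with the cavins. DNM1, a dynamin that severs membrane necks, was also lower (−1.27, adjusted p = 0.0087), a call that was lost when only the samples of DU145 and PC3 were fitted (adjusted p = 0.11). PACSIN3, which bends membranes, was higher (0.56, adjusted p = 0.0091), and so was DNM3 (0.40, adjusted p = 0.048), whose call was lost under most alternatives. DNM3 was at 1.12 and 1.71 TPM in PC3 and at 0.93 and 0.71 TPM in DU145. It entered the test through PC3 alone, so its call is not evidence beyond its values. Without DU145 repeat 2 the counts were 4 higher and 3 lower.

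Against LNCaP, DUCAP and VCAP, 10 of the 12 accessory genes were higher in DU145 and PC3 and 2 were lower, where 51.9% of all tested genes were higher and 22.5% lower, with a median of 1.99 against 0.40 for all genes. The 3 other scalings of the samples gave the same counts. Of the higher genes, EHD2 entered the test through DU145 and PC3 alone, and DNM3 through PC3 alone. Their part in these counts is not evidence beyond their values. FLNA, the actin crosslinker filamin A that anchors caveolae, was at 442.76 and 636.48 TPM in DU145, at 839.91 and 709.05 TPM in PC3 and at 12.61 to 91.41 TPM elsewhere (difference 4.17, adjusted p = 9.5e-08 from limma). EHD2 was higher by 4.15 (adjusted p = 4.4e-08), as the mean of 2 unlike lines and with the limit from the filter given above. The lower genes were PACSIN1 (−1.69, adjusted p = 0.00064) and PACSIN2 (−0.28, adjusted p = 0.014). CAVIN4, the cavin of muscle, was below the filter, at 0.71 and 0.55 TPM in DU145, at 0.99 and 0.41 TPM in PC3 and at 0.11 TPM or less elsewhere.

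The 11 genes of flotillin domains and of the clathrin coat, which serve uptake routes other than caveolae, were all tested. In PC3 against DU145, 6 were higher and 2 lower (25.5 and 23.8% of all tested genes), with a median of 0.54 against 0 for all genes. AP2A1 (1.09, adjusted p = 0.0020 from limma) and AP2M1 (1.01, adjusted p = 0.00047), both subunits of the AP2 adaptor, were higher. FLOT2, a flotillin, was lower (−1.42, adjusted p = 9.9e-05), as was the clathrin light chain gene CLTA (−0.90, adjusted p = 0.00076). The count of higher genes fell to 2 without PC3 repeat 1, without PC3 repeat 2 and when only DU145 and PC3 were fitted. In DU145 and PC3 against the other lines 9 were higher and 0 lower (51.9 and 22.5% of all tested genes), with a median of 1.31 against 0.40 for all genes, led by AP2A1 (1.92) and CLTB (1.73). Quantile normalization gave 8 higher and 2 lower, and so did median-ratio scaling. With mitochondrial genes left out of the scaling, 9 were higher and 1 lower. In contrast with the caveolins, AP2A1 was not near 0 in LNCaP, DUCAP and VCAP, at 7.65 to 52.62 TPM. The groups overlapped for AP2A1, at 39.49 and 54.64 TPM in DU145 and 99.6 and 100.95 TPM in PC3. They also overlapped for CLTB, at 67.3 and 74.23 TPM in LNCaP against 46.9 and 78.33 TPM in DU145. CLTB was at 97.26 and 124.04 TPM in PC3.

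Of 8 kinases, receptors and transporters reported in caveolae, 7 were tested and CD36 was below the filter. In PC3 against DU145, FYN (1.93, adjusted p = 0.00028 from limma) and SRC (1.75, adjusted p = 0.00011), kinases of the family that phosphorylates CAV1, were higher and the growth factor receptor EGFR was lower (−1.50, adjusted p = 0.00039). EGFR was at 61.46 to 62.05 TPM in DU145, at 17.34 to 25.69 TPM in PC3 and at 1.38 to 8.51 TPM elsewhere. In DU145 and PC3 against the other lines 3 were higher and 2 lower (51.9 and 22.5% of all tested genes), with a median of 0.16 against 0.40 for all genes. The sign of this median turned to −0.39 with quantile normalization, −0.23 with median-ratio scaling, −0.04 without mitochondrial genes and −0.12 without DU145 repeat 1. EGFR (2.95, adjusted p = 2.4e-07) and YES1 (1.40, adjusted p = 2.6e-06) were the higher genes with the largest differences, and NOS3 (−0.54) and SRC (−0.41) were lower. NOS3 was at 2.42 and 3.23 TPM in LNCaP and at 0.23 TPM or less elsewhere. It entered the test through LNCaP alone, so its call is not evidence beyond its values. The groups overlapped for SRC, at 26.7 to 27.04 TPM in LNCaP and 84.85 to 86.68 TPM in DUCAP. SRC was at 97.69 to 111.05 TPM in VCAP, 21.2 to 29.38 TPM in DU145 and 76.25 to 97.34 TPM in PC3. For the whole list, quantile normalization and median-ratio scaling each gave 2 higher and 3 lower.

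**Figure D5:**
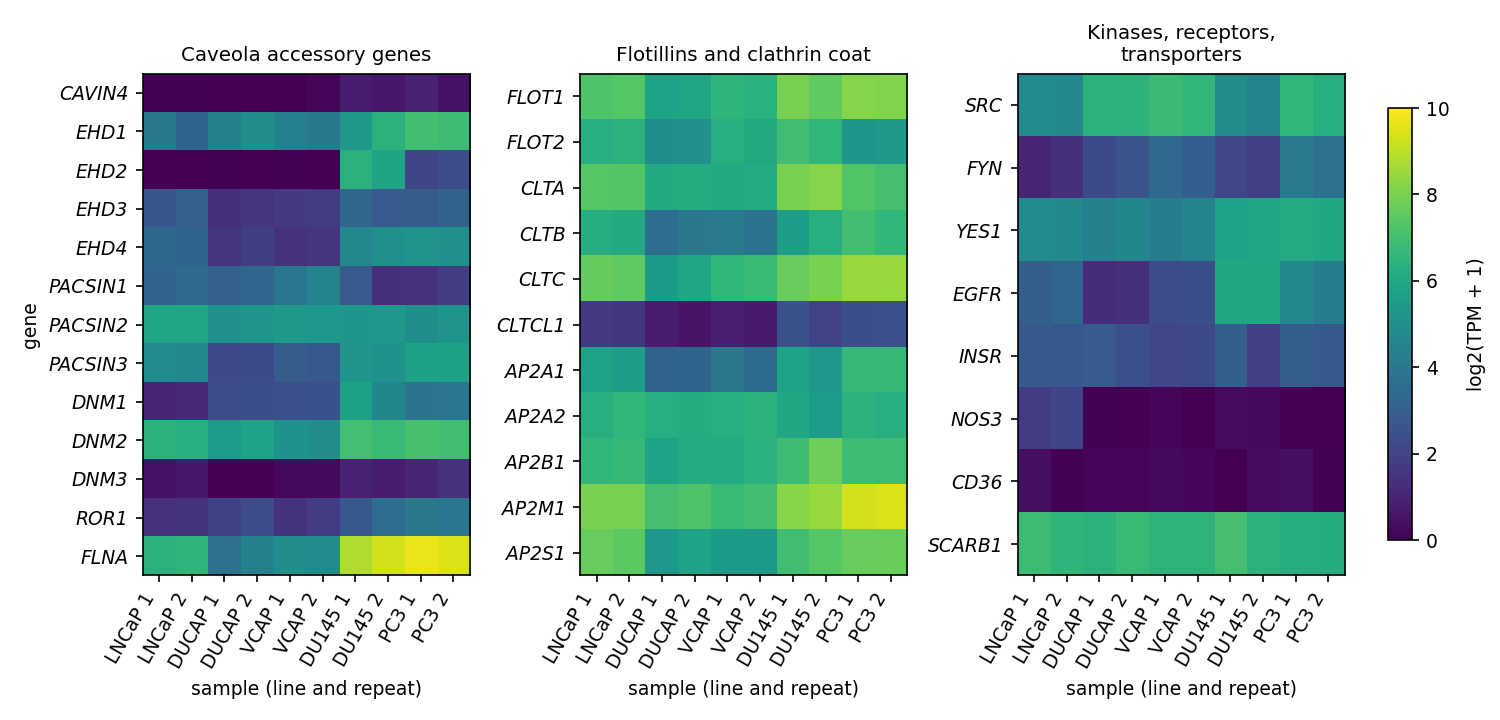
Heatmaps of log2(TPM + 1) in the 10 samples (columns, by line and repeat) for the genes of the 3 fixed lists (rows). In the left panel EHD2 is bright in DU145 and dim in PC3, with 83.83 and 55.53 TPM against 3.28 and 4.08 TPM in PC3, and FLNA is bright in both DU145 and PC3.

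The genes whose profiles over the 10 samples were most like those of the caveolins and cavins were ranked by Pearson's r of log2(TPM + 1) among 6793 genes whose line means spanned at least 2 on this scale. These values describe 10 samples of 5 lines, in which the repeats of a line are not independent, and they rest mainly on which lines were high. Among the profiles most like CAV1 were those of FGF2 (r = 0.998), CCN1 (0.998), RPL39L (0.998) and CLDN11 (0.997). CCN1, a matricellular protein gene, was at 224.85 and 386.77 TPM in DU145, at 223.62 and 271.51 TPM in PC3 and at 5.04 to 7.70 TPM elsewhere, and FGF2, a growth factor gene, was at 8.24 to 13.02 TPM in DU145 and PC3 and at no more than 0.03 TPM elsewhere. CAV2 ranked 79 for CAV1 (r = 0.988) and CAVIN1 ranked 3562 (r = 0.527).

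The profiles most like CAV2 were those of CGAS (r = 0.9996), CXCL8 (0.999), AREG (0.999), UBASH3B (0.998) and MYEOV (0.998), all of which were lower in PC3 than in DU145 but well above LNCaP, DUCAP and VCAP. AREG, an EGFR ligand gene, was at 140.69 and 246.83 TPM in DU145, at 56.78 and 41.31 TPM in PC3 and at no more than 0.09 TPM elsewhere. For CAVIN1 the nearest were PADI2 (r = 0.996), ZNF826P (0.995), LINC01322 (0.995), ELMOD1 (0.993) and TFAP2A-AS1 (0.991). PADI2, a protein deiminase gene, was at 12.61 and 15.14 TPM in DU145 and at 0.49 to 1.99 TPM elsewhere. For CAVIN3 they were LINC00707, LINP1, CYCSP6, AL772337.3 and CA2, with r at or above 0.9996 and levels near 0 outside DU145. TFAP2A-AS1 is an antisense gene and CYCSP6 a pseudogene, so their levels could hold reads of other genes. CAVIN3 ranked 37 and CAVIN2 ranked 72 for CAVIN1, with r of 0.977 and 0.973.

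Endothelial cells, fibroblasts, muscle cells and adipocytes are rich in caveolae, so their markers were read beside the caveolins. The endothelial genes CDH5 and PECAM1 were at no more than 0.09 and 0.43 TPM in every sample, and the 5 endothelial markers summed to 0.16 to 0.42 TPM in DU145, 4.74 to 5.01 TPM in PC3, of which KDR made up 4.52 and 4.28 TPM, and 0.08 to 5.46 TPM in the other lines. The 5 muscle markers summed to no more than 0.41 TPM and the 3 adipocyte markers to no more than 0.51 TPM in any sample, with ADIPOQ and LEP listed at 0 throughout. The 6 fibroblast markers summed to 1.51 to 4.93 TPM in DU145, 36.4 to 47.9 TPM in PC3 and 1.08 to 7.84 TPM elsewhere, and COL1A1, at 31.51 and 38.02 TPM, made up most of the PC3 sum. COL3A1 was at 3.61 and 8.45 TPM in PC3 against no more than 0.60 TPM elsewhere. In DU145, 0 of 5 endothelial and 1 of 6 fibroblast markers reached 1 TPM, and in PC3 these counts were 1 of 5 and 2 of 6. COL1A2 was at no more than 0.23 TPM and DCN at no more than 0.79 TPM in any sample. In DU145 the largest sum of these 4 lists was 4.93 TPM. Single markers were also seen where caveolins were near 0, with VWF at 5.45 and 4.22 TPM in LNCaP and LUM at 5.35 and 5.12 TPM in VCAP. Whether cells of these types had a part in the caveolin or cavin levels of any line was not tested.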

How the data were processed

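Bulk RNA-seq of 10 samples (5 untreated lines, 2 repeats each) was analysed. The authors checked and trimmed the reads with FastQC 0.11.9 and Trim Galore 0.6.5, aligned them with STAR 2.7.2b to GRCh38 and quantified genes with RSEM 1.3.3 (versions from the submitters' processing notes). They deposited TPM for 60642 gene symbols, without pooling repeats. Depth per sample is unknown from TPM, and precision rests on 2 repeats. TPM shares move with the mitochondrial fraction.

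The 17520 genes that reached 1 TPM in 2 or more samples were transformed to log2(TPM + 1). The 10 samples entered a single fit in limma 3.58.1 (R 4.3.3) that had a coefficient for each line, a trended prior variance, two-sided tests and Benjamini-Hochberg adjustment over all tested genes at 0.05. Of the members, 5 passed the filter. The fit was tested on simulated data. Genes were named by a fixed rule: all members, per list and contrast the 2 largest called changes in each direction, the 5 most similar profiles of CAV1, CAV2, CAVIN1 and CAVIN3, and 3 neighbours on each side. Neighbours beyond these, other genes of the run, and list genes below the filter were named after their values were seen. A marker gene and a similar profile that the rule names are not reported here. The members and lists were chosen with earlier results of these data known. Coordinates and promoter windows are from RefSeq on GRCh38.p14, and 4 of the 6 members matched a window. Alternatives changed the pseudocount, the filter, the scaling, the prior variance or the samples fitted, or added a replicate block. Other tools were Python 3.11.15, numpy 2.4.6, pandas 2.3.3 and matplotlib 3.10.9.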

Additional observations from a re-analysis of the deposited data

Results flagged for a closer look

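Each member and list gene was examined among the 6 samples of LNCaP, DUCAP and VCAP and among the 4 samples of DU145 and PC3 for a sample far from the rest, by its gap to the nearest other sample relative to the range (Dixon's 95% critical value). These groups mix lines, and of 73 groups with any spread 4 held such a sample. Among independent values of 1 normal distribution, chance alone flags about 1 group in 20. Pairs of repeats from different lines are not such values, so this rate is only a rough guide here. CAV1 in VCAP repeat 2 was at 0.83 on the log2(TPM + 1) scale (0.78 TPM), against 0 to 0.23 in the other 5 samples. CAVIN4 in VCAP repeat 2 was at 0.15 (0.11 TPM), against 0.03 to 0.07. AP2B1 in DU145 repeat 2 was at 7.78 (219.47 TPM), against 6.85 to 6.91 in the other 3 samples. INSR in DU145 repeat 2 was at 1.89 on the same scale, against 2.84 to 3.04. Both DU145 values are of the line whose repeats stood farthest apart.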

How the results depend on the processing

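The members were tested under the alternatives in PC3 minus DU145 and in DU145 and PC3 minus the other lines. CAV1 and CAV2 in the second of these, and CAVIN2 and CAVIN3 in both, passed the main filter only through lines where they were high. They had to differ there, so the count that follows is not evidence beyond their values. Of 185 tests of the members, 184 kept their direction and their side of the threshold. The exception was CAV1 in PC3 minus DU145, which was 0.23 without DU145 replicate 2 and ranged from −0.68 to 0.23 over the samples left out, without a call in any of these fits. In DUCAP minus LNCaP, CAV1 was −0.08 with all samples and ranged from −0.15 to 0, the latter without LNCaP replicate 1. When 1 sample was left out, CAVIN1 in PC3 minus DU145 ranged from −8.63 to −7.66, CAV2 from −2.02 to −1.23, and the number of genes called from 6295 to 9076. That number was 8642 with all samples and 5403 when only DU145 and PC3 were fitted, where fewer samples set the spread. CAV1 minus CAVIN1 in PC3, 7.97 as the mean of both repeats, was 11.2 with a pseudocount of 0.1, 7.59 after quantile normalization, 7.66 after median-ratio scaling and 8.21 after rescaling without mitochondrial genes. In LNCaP it moved from −1.75 to −4.18 with a pseudocount of 0.1. A replicate block, which adds the repeat number to the fit, gave 8525 called genes in PC3 minus DU145 and changed no call on a member. Equal repeat numbers of different lines are not tied together by the labels, and their samples did not deviate together (r of −0.191 to 0.249 in 10 pairs of lines, mean 0.00922). A fit with 1 sample in a line assumes that this sample varies like the other lines. Values near 0 TPM carry no depth, so calls between lines that were both below 1 TPM depended on the pseudocount, among LNCaP, DUCAP and VCAP and between each of these and PC3.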
